A study of Mus musculus with 30 samples.

Results

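To follow the first changes in the liver after hepatocyte CEBPA is lost in the adult, RNA-Seq was performed on 10 livers of the experiment HFCFD8W+T10D, chosen by their labels from the 30 liver libraries of the series. Of these male mice, 5 were inducible knockouts (Cebpa ΔHep,ERT2) and 5 were Cebpa fl/fl controls. All 10 carried the floxed *Cebpa* alleles on a C57BL/6N background, were kept for 8 weeks on HFCFD, a diet rich in fat, cholesterol and fructose, and received tamoxifen for the last 10 days. The sources used here do not say whether those 10 days were part of the 8 weeks or followed them. The knockouts also carried a tamoxifen-activated Cre recombinase (ERT2-Cre) driven by the albumin promoter, which is active in hepatocytes. The controls were Cre-negative, so that loss of *Cebpa* and the presence of an active Cre cannot be told apart here. The other 20 libraries came from HFCFD12W+T10W, in which the same inducible line had 12 weeks of the diet and then 10 more weeks of it with tamoxifen, and from HFCFD2W, in which a constitutive albumin-driven Cre (Cebpa ΔHep) was used on 2 weeks of the diet, each with 5 knockout and 5 Cebpa fl/fl mice.

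CEBPA is a basic leucine zipper transcription factor that binds DNA as a dimer and is abundant in hepatocytes, adipocytes and myeloid cells. In the liver it is known for driving genes of the differentiated hepatocyte, such as those for plasma proteins, the urea cycle, glucose output and drug metabolism, and for restraining cell division. Its relatives CEBPB and CEBPD bind the same DNA sequence and are known for the acute phase response.

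The 5 control libraries held 8579909 to 9956884 counts each and the 5 knockout libraries 8766880 to 9698927, and 15539 to 16904 genes had a count in a library. Levels are given below as CPM, counts scaled to a common library total after TMM normalization, in mice 1 to 5 of each genotype, and fold changes as log2 values, Cebpa ΔHep,ERT2 against Cebpa fl/fl. *Cebpa* itself was at 125, 144, 159.9, 153 and 154 CPM in Cebpa fl/fl livers and at 15.6, 26.2, 22.5, 13.2 and 11.5 CPM in Cebpa ΔHep,ERT2 livers. The genotypes did not overlap, and 12.1% of the control mean remained, with a log2 fold change of -3.04 (SE 0.20, adjusted p = 4.1e-06 in edgeR's quasi-likelihood test). As a check of the labelled tissue, the 11 hepatocyte-defining markers tested summed to 125887 to 155660 CPM in Cebpa fl/fl livers and 64786 to 125819 CPM in Cebpa ΔHep,ERT2 livers, and none was at 0. Of these 11 genes, 3 were called lower (*Serpina1a*, *Serpina1c* and *Cps1*) and 0 higher, and albumin (*Alb*) passed the adjusted p but not the fold threshold, at 110963, 101859, 106123, 85982 and 87267 CPM against 38038, 39302, 52702, 79736 and 46717 CPM. In whole liver, fewer cells of a type and less RNA per cell cannot be told apart.

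A gene was called higher or lower where its fold change was over 2 and its adjusted p (edgeR's quasi-likelihood test, Benjamini-Hochberg over 11990 genes) under 0.05. By this rule 490 genes (4.09%) rose in the knockout livers and 241 (2.01%) fell, 6.1% of the genes in all, around a median log2 fold change of 0.01 over all genes. Among the higher genes, 297 had every knockout mouse above every control, and 182 of the lower genes had every knockout mouse below, while over all genes tested 6.36% lay wholly above and 5.28% wholly below. The lower genes had been the more abundant: together they held 7.38% to 8.73% of all counts in Cebpa fl/fl livers and 1.98% to 3.31% in Cebpa ΔHep,ERT2 livers. The higher genes moved from 0.678% to 0.829% of counts to 2.14% to 3.63%. The plot of gene lists gives an outline of where these genes lay, with male-biased and drug-metabolizing genes on the lower side and macrophage, cell cycle, interferon and antioxidant genes on the higher side. The largest shares of called members were in the recruited and lipid-associated macrophage markers (78.6%), the male-biased liver genes (66.7%) and the female-biased liver genes (57.9%), against 6.1% of all genes. Because the lists were chosen with earlier results of these data known, these shares are a description, and enrichment was not tested.

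**Figure D1:**
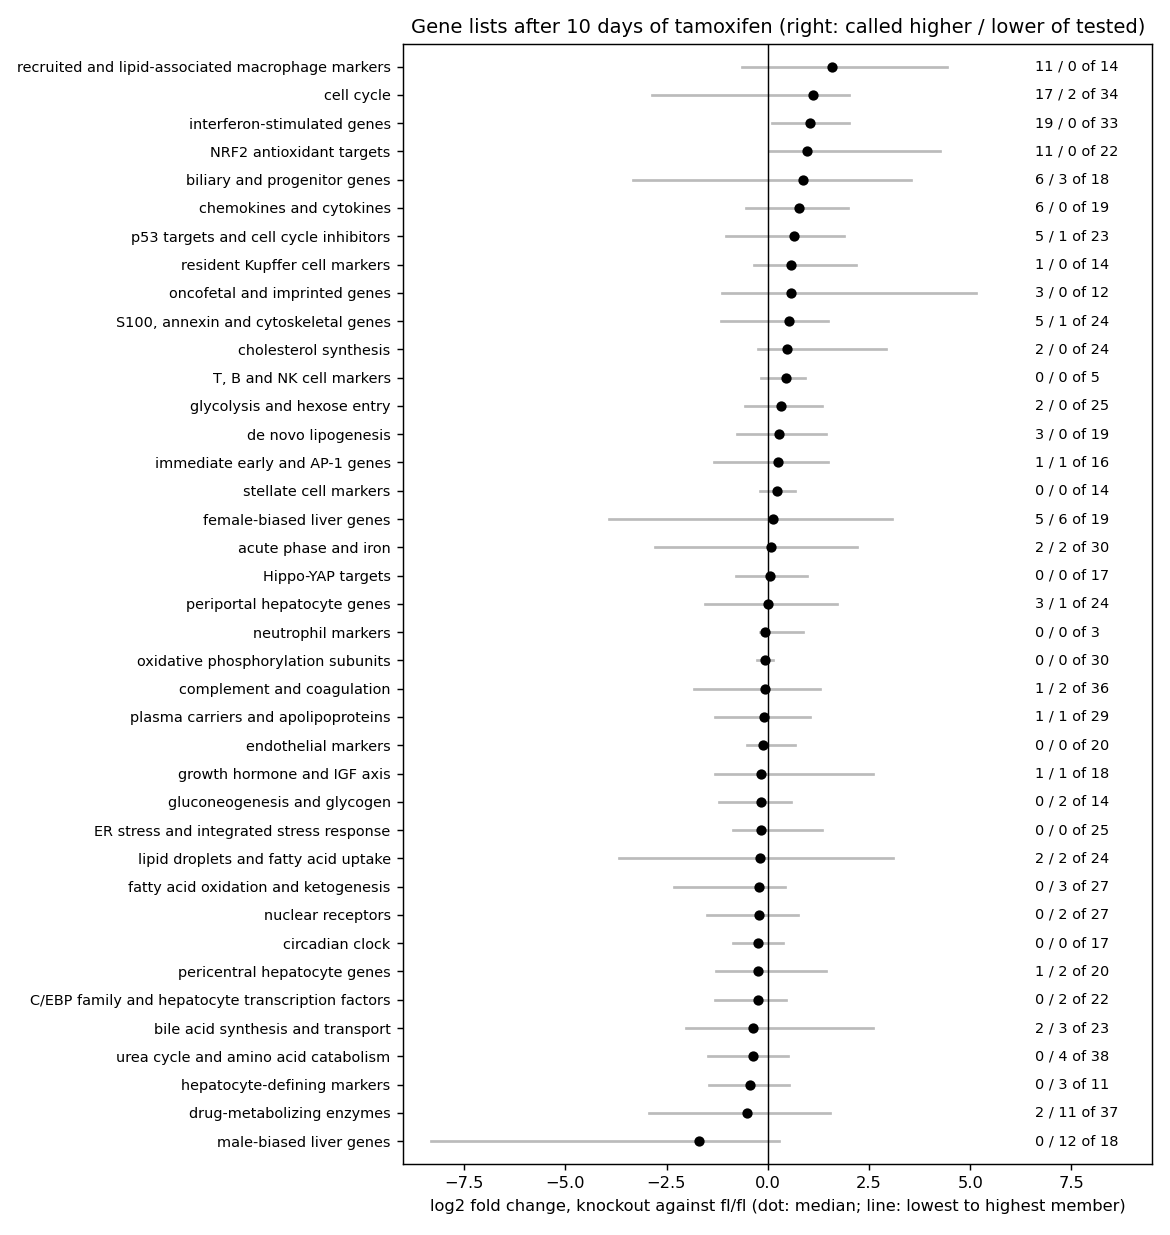
Median log2 fold change (dot) and the lowest to highest member (line) of 39 gene lists, Cebpa ΔHep,ERT2 against Cebpa fl/fl livers, n = 5 mice each; at the right, members called higher / called lower of those tested. Male-biased liver genes had the lowest median, -1.70, and recruited and lipid-associated macrophage markers the highest, 1.58, where the median of all genes was 0.01.

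Among the steepest falls were secreted proteins of the hepatocyte. The major urinary proteins (Mup) are small lipid-binding pheromone carriers made by the male liver from a cluster of near-identical genes on chromosome 4. All 16 Mup genes tested were called lower, the pseudogene *Mup-ps19* was not called (-1.33), and together the family held 1.56%, 1.65%, 1.86%, 2.01% and 1.02% of counts in Cebpa fl/fl livers and 0.106%, 0.0936%, 0.123%, 0.154% and 0.192% in Cebpa ΔHep,ERT2 livers (p = 0.00794, two-sided exact permutation test, the smallest that 5 mice against 5 allow). *Mup3* was at 6959, 6799, 6200.4, 6691 and 3549 CPM in controls and 42.7, 4.98, 33.6, 93.8 and 33.4 CPM in knockouts (log2 fold change -7.18, SE 0.64), *Mup2* was at least 80.6-fold lower against a floor of 3 counts in each knockout library, and *Mup20*, at -1.32 (adjusted p = 0.017, edgeR), was the only member whose genotypes overlapped. Reads that fit several of these genes were divided among them by RSEM, so single values are uncertain and the family total is less so.

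*Serpina1e*, a paralog of alpha-1-antitrypsin, was at 4643, 8514, 7730.0, 5529.7 and 799.5 CPM in Cebpa fl/fl livers and at 19.5, 16, 16.6, 23.7 and 9.11 CPM in Cebpa ΔHep,ERT2 livers, the largest fall among the genes named by fold change outside the Mup family (log2 fold change -8.32, SE 0.62, adjusted p = 7.4e-06, edgeR). Control mouse 5 was far below the other controls and still far above every knockout. Its neighbours on chromosome 12 fell much less: *Serpina1a* by a log2 fold change of -1.44, *Serpina1c* of -1.38 and *Serpina1d* of -1.56, and *Serpina1b* had -0.84, under the fold threshold. *Serpina1c* had the largest loss in CPM of the genes called lower, from 10822, 12360.5, 9778, 11252 and 7403 CPM to 3269.7, 2230.1, 3546, 6919.6 and 3908 CPM. In this family too reads can be divided between copies. The 150 bases nearest the start of each of the 5 genes (RefSeq, GRCm38.p6, all on the minus strand of chromosome 12, written 5′ to 3′ along the gene) are shown because paralogs with log2 fold changes from -8.32 to -0.84 share a promoter stretch of 55 bases, in capitals. Its last base lies 5 bases before the annotated RefSeq start in *Serpina1a*, 10 in *Serpina1b*, 11 in *Serpina1c*, 0 in *Serpina1d* and 62 in *Serpina1e*. These distances depend on the start used. The one used for *Serpina1e* lies inside the gene as GENCODE gives it (chr12:103946931-103958975).
Serpina1a, chr12:103863620-103863769: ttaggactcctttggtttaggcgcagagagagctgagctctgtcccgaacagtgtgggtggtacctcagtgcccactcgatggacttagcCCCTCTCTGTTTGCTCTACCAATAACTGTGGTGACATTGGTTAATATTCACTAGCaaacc
Serpina1b, chr12:103738190-103738339: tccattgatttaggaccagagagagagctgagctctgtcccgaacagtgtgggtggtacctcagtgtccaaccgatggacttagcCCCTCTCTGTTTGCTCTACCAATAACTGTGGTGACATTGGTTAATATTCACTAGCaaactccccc
Serpina1c, chr12:103904951-103905100: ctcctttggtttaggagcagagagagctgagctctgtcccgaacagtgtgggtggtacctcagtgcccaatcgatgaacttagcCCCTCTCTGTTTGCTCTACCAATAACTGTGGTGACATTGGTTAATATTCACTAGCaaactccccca
Serpina1d, chr12:103773634-103773783: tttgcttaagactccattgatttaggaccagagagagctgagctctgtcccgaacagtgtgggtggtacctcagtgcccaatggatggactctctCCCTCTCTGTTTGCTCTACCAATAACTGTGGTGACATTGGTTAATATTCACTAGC
Serpina1e, chr12:103956898-103957047: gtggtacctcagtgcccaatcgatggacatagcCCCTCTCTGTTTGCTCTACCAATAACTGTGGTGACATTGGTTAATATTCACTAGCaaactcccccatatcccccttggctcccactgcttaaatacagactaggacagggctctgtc

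Other steep falls joined them. *Elovl3*, which elongates fatty acids, went from 33.2, 73, 25.5, 154 and 37.7 CPM to 0.58, 0.172, 0.226, 5.71 and 0.784 CPM, and knockout mouse 4 had the most left. *Obp2a*, an odorant-binding lipocalin, went from 109, 180.2, 232, 319.7 and 95.7 CPM to 4.06, 3.26, 6.1, 17.9 and 8.62 CPM, and *Wfdc21*, a secreted whey acidic protein domain gene, from 219, 244, 269, 227 and 234 CPM to 35.7, 1.29, 13.4, 3.89 and 5.78 CPM, with knockout mouse 1 highest. *Car3*, a carbonic anhydrase of hepatocytes and adipocytes, was at 2084, 2052, 795, 2020.0 and 1673 CPM in controls and 119, 111, 136, 307 and 123 CPM in knockouts (log2 fold change -3.44, SE 0.35), and *Plin4*, a lipid droplet coat protein, at 40, 43.1, 16, 59.2 and 87.3 CPM and 4.25, 3.52, 2.94, 6.32 and 2.55 CPM. The sulfotransferase *Sult2a8* had log2 fold change -3.77, the phosphate transporter *Slc34a2* -3.10, the organic anion transporter *Slc22a28* -3.34 and the glucuronosyltransferase *Ugt2b38* -3.37. These genes were named by a rule that required no overlap between the genotypes, so its absence is no separate result.

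C/EBP proteins bind a palindromic site whose common core was searched here as TTGCNNAA on both strands of the 250 bases before each gene's start. Of the 241 genes called lower, 176 had a RefSeq promoter (GRCm38.p6, the first listed for a gene), and 33 of those (18.8%) held a match. Among genes called higher it was 31 of 373 (8.31%), and among all genes tested 725 of 9315 (7.78%). The promoters of lower genes were also poorer in G and C, with a median of 51.6% against 54.4% for higher genes and 59.6% for all, whose part in the difference was not tested, and some of the matches lie in paralogs that share sequence (*Cyp2b9*, *Cyp2b10* and *Cyp2b13*, *Serpina1d* and *Serpina1e*). The 100 bases before that RefSeq start are shown for the 7 lower genes of the named set with a match in that window, with the matched bases in capitals. For *Slc34a2* the start used lies inside the gene as GENCODE gives it (chr5:53038081-53071664). The bases shown for it are therefore not upstream of the whole gene. In *Slc34a2* the 8 bases match on both strands, in *Cyp2c69*, *Slc22a28* and *Cyp2a4* along the gene, and in *Saa4*, *F11* and *Serpina7* on the opposite strand. A match is a description of the sequence and no measurement of binding.
Slc34a2, chr5:53049253-53049352, plus strand: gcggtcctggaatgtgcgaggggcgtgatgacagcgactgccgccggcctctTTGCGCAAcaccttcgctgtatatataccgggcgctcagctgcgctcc
Cyp2c69, chr19:39886770-39886869, minus strand: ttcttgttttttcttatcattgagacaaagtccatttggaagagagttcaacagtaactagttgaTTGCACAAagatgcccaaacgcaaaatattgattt
Slc22a28, chr19:8131983-8132082, minus strand: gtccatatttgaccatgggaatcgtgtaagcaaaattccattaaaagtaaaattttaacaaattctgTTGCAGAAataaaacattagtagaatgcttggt
Cyp2a4, chr7:26307092-26307191, plus strand: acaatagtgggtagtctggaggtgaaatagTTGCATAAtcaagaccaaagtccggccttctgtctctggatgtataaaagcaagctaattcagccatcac
Saa4, chr7:46732604-46732703, minus strand: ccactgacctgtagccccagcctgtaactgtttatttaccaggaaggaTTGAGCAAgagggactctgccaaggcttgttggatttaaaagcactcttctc
F11, chr8:45262032-45262131, minus strand: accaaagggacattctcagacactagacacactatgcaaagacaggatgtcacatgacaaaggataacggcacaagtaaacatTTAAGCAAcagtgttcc
Serpina7, chrX:139085237-139085336, minus strand: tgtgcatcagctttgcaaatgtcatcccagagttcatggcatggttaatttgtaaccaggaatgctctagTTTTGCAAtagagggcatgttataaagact

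Many hepatocyte genes differ in level between male and female livers, under the pulse pattern of growth hormone. Of 18 male-biased genes tested, 12 were called lower and 0 higher, around a list median of -1.70, and beside *Serpina1e* and *Elovl3* they included *Mup21* (-4.52), *Slc15a5* (-3.49) and *Susd4* (-2.64). The female-biased list was split, with 5 of 19 higher and 6 lower, where the 5 became 2 without control mouse 1 or 4 or knockout mouse 1 and 3 without control mouse 3 or knockout mouse 2 or 3. The lower members were cytochromes, among them *Cyp2b9* at 145, 106, 38.3, 75.4 and 189 CPM against 12.9, 1.03, 4.63, 11.7 and 6.47 CPM, *Cyp2c69* (-3.87), *Cyp2c40* (-2.82) and *Cyp2a4* (-2.47), while *Cux2*, a female-specific repressor, was higher at 1.31, 0.262, 1.78, 0 and 0.506 CPM against 4.06, 2.75, 9.27, 2.92 and 4.31 CPM (log2 fold change 2.59, SE 0.58) and *Cyp3a41a* at 3.07. The male-biased list score was 0.12, 0.38, 0.17, 0.52 and -1.19 in controls and -2.34, -2.65, -2.18, -1.27 and -1.91 in knockouts. Control mouse 5 was thus far below the other controls, close to knockout mouse 4, and it also had the lowest Mup share of the controls. In the growth hormone and IGF list only *Cux2* of 18 was called higher and *Igfbp2* lower (-1.30, genotypes overlapping).

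In amino acid catabolism, 34 of 38 genes had a negative log2 fold change, as had 5827 of all 11990 genes tested, and 4 were called lower, 0 higher, with a median of -0.37. *Cps1*, the entry enzyme of the urea cycle, fell from 3489.8, 3943, 3667, 3957 and 3447 CPM to 1123, 1409.6, 1413, 1893 and 1301 CPM (log2 fold change -1.37, SE 0.16, adjusted p = 0.00016, edgeR). *Tdo2*, which opens the tryptophan ring, was at -1.47, *Oat*, an ornithine aminotransferase, at -1.26 and *Got1*, an aspartate aminotransferase, at -1.33. Among 14 genes of gluconeogenesis and glycogen, *G6pc*, the catalytic subunit that releases glucose, was called lower at 317, 197, 263, 276 and 158 CPM against 159, 100.3, 121, 97.6 and 83 CPM, with knockout mouse 1 just above the lowest control, as was the glycogen-targeting subunit *Ppp1r3b* (-1.19), and none was higher. Of 25 glycolytic genes, the hexokinases *Hk3* (1.34) and *Hk2* (1.01, adjusted p = 0.046, edgeR) were called higher and none lower, and 1 was without control mouse 2 or 4 or knockout mouse 2 or 3.

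Lipid genes moved in both directions. The desaturases of polyunsaturated fatty acids were higher: *Fads1* went from 211, 157, 319.7, 123 and 213 CPM to 621, 553, 588, 524 and 479 CPM (log2 fold change 1.43, SE 0.21) and *Fads2* from 463, 457, 581, 418 and 323 CPM to 1355, 1052, 1222, 1029.6 and 745 CPM (1.27, SE 0.19). With *Acacb* (1.11), which makes malonyl-CoA, they were the 3 called among 19 lipogenic genes. *Lpl*, lipoprotein lipase, which the adult liver normally makes little of, rose from 38.1, 26.2, 41.1, 37 and 49.8 CPM to 149, 261, 159, 134 and 167 CPM (2.18, SE 0.20, adjusted p = 3.1e-05, edgeR). In the lipid droplet and uptake list *Smpdl3b*, a lipid-modifying phosphodiesterase, also rose (3.09), *Plin4* and *Mogat1* (-1.61) fell, and 20 of 24 were not called; the lower genes numbered 1 without control mouse 4 or 5 and 4 without knockout mouse 4. Fatty acid oxidation and ketogenesis had 3 of 27 genes lower and 0 higher: the omega-hydroxylases *Cyp4a14* (-2.31) and *Cyp4a10* (-1.20) and the thioesterase *Acot1* (-1.21). Without control mouse 5 only 1 of the 3 was called, with *Acot1* at -0.99 and *Cyp4a10* at -0.77. Control mouse 5 was high in *Cyp4a14* at 1853 CPM, where the other controls ran up to 560.1 CPM, and all knockouts lay below the lowest control at 148, 169.7, 144, 125 and 105 CPM.

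In cholesterol synthesis 22 of 24 genes had a positive value, as had 6163 of all 11990 genes tested, with a median of 0.47, and *Idi1* (1.31) and *Sqle* (2.92) were called higher, 0 lower. Without knockout mouse 2 the called members numbered 5. *Sqle*, squalene epoxidase, was at 0.598, 0.916, 0.594, 0.104 and 0.709 CPM in controls and 11.4, 1.12, 4.18, 2.43 and 2.94 CPM in knockouts, so that mouse 1 was far above the rest. In bile acid handling, *Cyp7a1*, the rate-limiting enzyme of the classical synthesis pathway, fell from 103, 139, 96.9, 85.1 and 90.1 CPM to 41.1, 28.3, 14.7, 20 and 21.4 CPM (log2 fold change -2.03, SE 0.24, adjusted p = 0.00014, edgeR). The uptake carrier *Slco1b2* (-1.45) and *Cyp7b1* (-1.40) fell as well, and the basolateral export pump *Abcc4* rose from 12.5, 8.77, 3.92, 4.38 and 7.19 CPM to 33.4, 63.5, 54.5, 45.1 and 27.4 CPM. In all, 2 of 23 genes of this list were higher and 3 lower, and 1 was higher without control mouse 5 or knockout mouse 4 or 5.

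Of 37 drug-metabolizing enzymes, 11 were called lower and 2 higher, with a median of -0.51. With a mouse left out the lower genes ran from 8 without control mouse 2 to 15 without knockout mouse 4. *Ugt2b1*, a glucuronosyltransferase, fell from 836, 1025, 851, 781 and 508 CPM to 75.4, 110.4, 76, 165 and 96.6 CPM (-2.94, SE 0.25) and the sulfotransferase *Sult1d1* from 182, 255, 228, 235 and 342 CPM to 59.6, 50.1, 52.1, 69.7 and 64.1 CPM (-2.07, SE 0.16). *Cyp2e1*, an ethanol-oxidizing cytochrome of the pericentral zone, was at 9439, 12288, 8476, 10024 and 8996 CPM and 4253, 1545, 5082, 6643 and 2710.2 CPM, *Cyp3a11* had -1.18 and *Cyp2c29* -1.37. On the other side stood *Cyp2f2*, a periportal cytochrome, at 318, 299, 278, 509 and 123 CPM against 261, 401, 819.9, 1964 and 949 CPM. Knockout mouse 4 was highest in it and knockout mice 1 and 2 lay within the controls (log2 fold change 1.53, adjusted p = 0.045, edgeR, and 0.98 without knockout mouse 4). The epoxide hydrolase *Ephx1* was the other higher gene (1.07, 0.81 at the lowest with a mouse left out). The higher genes of the list numbered 0 without control mouse 3 or knockout mouse 4, 1 without control mouse 1, 2 or 5 or knockout mouse 3 or 5, and 3 without knockout mouse 1. Outside that list, *Ces1g* (1.27), a carboxylesterase, and *Ugt1a9* (2.00) were among the genes with the largest gains in CPM.

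Targets of NRF2, the factor that answers electrophilic and oxidative stress, were higher as a set of values: all 22 tested had a positive log2 fold change and 11 were called, 0 lower, with a median of 0.97. Glutathione transferases led them. *Gstm3* went from 88, 55.8, 23, 32.6 and 92.8 CPM to 496, 1682, 1209.6, 961 and 1189 CPM (log2 fold change 4.24, SE 0.43, adjusted p = 5.4e-05, edgeR) and *Gstm1* from 1322, 1025, 831, 968 and 1364 CPM to 3159.9, 6541, 5632, 8399 and 6599 CPM (2.46), the largest gain in CPM of the genes called higher. The quinone reductase *Nqo1* (2.21) and the carbonyl reductase *Cbr3* (3.73) were higher without overlap. Knockout mouse 1 was lowest in each of these, and in *Gsta1* it stood at 7.82 CPM among the controls, where the other knockouts had 73 to 98.2 CPM. Glutathione transferases of a class lie in clusters of similar genes, and reads can be divided between them.

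Most plasma protein genes were not called. Of 29 carriers and apolipoproteins, *Apoc2*, the activator of lipoprotein lipase, was higher (1.03, SE 0.11) and *Serpina7*, thyroxine-binding globulin, lower (-1.30). The higher genes of this list numbered 0 without control mouse 2 or knockout mouse 4. Its lower genes numbered 0 without control mouse 2 or 5 or knockout mouse 3, and 2 without knockout mouse 4. *Apoc2* had 0.98 at the lowest among the alternatives. Of 36 complement and coagulation genes, *Mbl2*, mannose-binding lectin, rose from 359, 402, 369, 317 and 359 CPM to 549, 983, 792, 1226 and 829.7 CPM, and *C6* (-1.81) and coagulation factor XI, *F11* (-1.75), fell, with 4 lower without knockout mouse 1. In the acute phase and iron list, *Saa4*, the constitutive serum amyloid A, fell from 368, 599.8, 402, 337 and 409.8 CPM to 148, 57.7, 84.3, 69.1 and 82 CPM (-2.26, SE 0.24), *Hamp2* was lower (-2.78), *Il1rn* (1.06) and *Lcn2* (2.20, adjusted p = 0.045, edgeR) higher, and 26 of 30 were not called. The higher genes of this list numbered 0 without control mouse 1, 2, 3 or 4 or knockout mouse 2 or 3 and 1 without control mouse 5 or knockout mouse 1, and the lower genes 4 without knockout mouse 1. Of the values of *Lcn2*, 1077, 249, 289, 39.6 and 55.7 CPM in knockouts against 74.2, 78.9, 59.2, 62.2 and 97.4 CPM in controls, mice 4 and 5 lay below every control, and without knockout mouse 1 the log2 fold change was 1.07 (adjusted p = 0.164, edgeR).

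Among 22 genes of the C/EBP family and the hepatocyte transcription factors, 2 were called lower, *Onecut1* (-1.31) and *Onecut2* (-1.07), and 0 higher, although 7 had an adjusted p under 0.05 in edgeR's test, all of them negative. The targeted *Cebpa*, itself called lower, was not a member of this list. *Onecut1* lost its call in 9 of 15 alternatives (adjusted p up to 0.108, edgeR), and the lower genes of the list numbered 1 without control mouse 2, 3, 4 or 5 or knockout mouse 1, 2 or 3. *Hnf4a*, a master regulator of hepatocyte identity, was at 679, 657, 659, 749 and 872 CPM against 420.1, 487, 463, 563 and 513 CPM, a log2 fold change of -0.56 (SE 0.13, adjusted p = 0.01, edgeR). *Cebpb* was at 24.9, 22.6, 17.2, 23.8 and 32.8 CPM in controls and 24.3, 23.6, 26, 26.1 and 27.2 CPM in knockouts, a log2 fold change of 0.07 (SE 0.14, adjusted p = 0.79, edgeR). Among 27 nuclear receptors, *Nr1i3*, the xenobiotic sensor CAR, fell from 79.5, 68.6, 62.2, 114 and 71.8 CPM to 31.3, 25.9, 34, 34.3 and 28.3 CPM (-1.37, SE 0.16), and the list had 8 negative and 0 positive at an adjusted p under 0.05. Over all 11990 genes tested, 821 were negative and 1231 positive at that adjusted p. Zonation lists were mixed. Of 20 pericentral genes, *Rhbg*, an ammonium transporter, was higher (1.45) and *Cyp2e1* and *Oat* lower, and of 24 periportal genes, *Cyp2f2*, *Apoc2* and *Cdh1*, E-cadherin (1.71), were higher and *Cps1* lower. Without control mouse 2 or knockout mouse 4 only 1 periportal gene was called higher, and without knockout mouse 3, 4 or 5 the lower genes numbered 2.

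The largest rises started from low levels, and some were in genes known from fetal liver, bile ducts and progenitors. *Spink1*, a secreted trypsin inhibitor, was at 0.239, 0.262, 0.356, 0.104 and 0.304 CPM in Cebpa fl/fl livers, all at the floor of 3 counts, and at 17.6, 61.7, 11, 9.72 and 16.3 CPM in Cebpa ΔHep,ERT2 livers, at least 67.4-fold higher (adjusted p = 8.7e-05, edgeR). *Gipc2*, a PDZ-domain adaptor, was at least 34.2-fold higher, with every knockout between 6.17 and 18.5 CPM. The imprinted fetal RNA *H19* rose from 0.478, 0.262, 0, 0.104 and 0.709 CPM to 14.1, 17.8, 5.65, 6.2 and 13.8 CPM, and *Ccn5*, a matricellular protein, from 0.598, 0.654, 0, 0.417 and 0.81 CPM to 25.9, 20.6, 14.1, 1.46 and 5.39 CPM, lowest in mouse 4. In all, 6 higher genes had every control at the floor. Of 18 biliary and progenitor genes tested, 6 were called higher and 3 lower, with a median of 0.88: *Tff3*, a mucosal peptide, went from 4.9, 2.75, 13.8, 6.46 and 3.14 CPM to 46.7, 106, 36.8, 54.4 and 47.1 CPM, *Epcam*, a surface marker of ducts and progenitors, from 0.478, 0.393, 0.712, 0.313 and 0.608 CPM to 4.64, 3.26, 2.82, 2.19 and 2.25 CPM, and the epithelial factor *Ehf* had 3.27, while *Wfdc2* fell (-3.32, SE 0.33). The duct keratin *Krt19* was at 4.18, 4.58, 3.44, 0.834 and 6.38 CPM against 2.03, 1.8, 2.94, 3.52 and 3.43 CPM (log2 fold change -0.51, adjusted p = 0.42, edgeR). Without knockout mouse 4 or control mouse 2 the higher genes of the biliary list numbered 10, and with more of its members tested they were 11 of 28 with no low-count filter and 12 of 26 in the joint fit of 30 libraries. Of 12 oncofetal genes tested, *H19*, *Cd24a* (1.74) and *Cdkn1c* (1.65) were higher and 0 lower, and 6 were higher without knockout mouse 4, 5 of 21 with no low-count filter and 5 of 15 in the joint fit. Other genes with the largest fold changes and no overlap were *Abcc12*, a transporter of the ABC family (4.28), *Pls1*, an actin-bundling protein of microvilli (3.94), the surface antigen *Ly6d* (3.16) and *Cyp2d12* (3.27).

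Cell division genes were higher: 17 of 34 were called higher and 2 lower, with a median of 1.12, and 32 had a positive value. *Ccna2*, cyclin A2, went from 3.35, 4.06, 3.92, 1.35 and 3.34 CPM to 8.11, 12.4, 9.04, 5.1 and 11.8 CPM (1.55, SE 0.29), *Plk1*, a mitotic kinase, from 0.837, 0.785, 0.95, 0.104 and 1.01 CPM to 2.7, 3.26, 2.82, 2.31 and 3.72 CPM (2.00), and *Kif20a*, a kinesin of cytokinesis, had 1.32. Control mouse 4 had the lowest level of each of these in its group, and the list score, the mean difference of its genes from the Cebpa fl/fl mean in log2 CPM, was 0.16, 0.20, 0.50, -0.82 and -0.04 in controls and 0.92, 1.22, 0.98, 0.43 and 0.87 in knockouts, with knockout mouse 4 below control mouse 3. Against this direction stood *Mcm10*, a factor that starts DNA replication, which fell from 33.6, 40, 51.1, 39.8 and 31.2 CPM to 4.73, 5.66, 3.62, 8.14 and 4.9 CPM (-2.86, SE 0.20, adjusted p = 4.3e-06, edgeR), the steepest change of the list. With a mouse left out, the called higher members numbered 11 without control mouse 1, 10 without control mouse 4, 10 without knockout mouse 1, 8 without knockout mouse 2 and 11 without knockout mouse 3. Targets of p53 and cell cycle inhibitors had 5 of 23 genes higher and 1 lower, with 3 higher without knockout mouse 2 or control mouse 4. *Ccng1*, cyclin G1, went from 42.4, 53.7, 37.3, 43.1 and 40.6 CPM to 68.2, 112, 112, 108 and 85.6 CPM (1.16, SE 0.15), the death receptor *Eda2r* had 1.89, *Phlda3* was called as well, and the stress hormone *Gdf15* was lower (-1.03).

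Of 14 markers of recruited and lipid-associated macrophages, 11 were called higher and 0 lower, with a median of 1.58, and their summed level was 576.0 to 713 CPM in Cebpa fl/fl livers and 899 to 1603 CPM in Cebpa ΔHep,ERT2 livers, with none at 0. *Gpnmb*, a glycoprotein of lipid-laden macrophages, went from 1.55, 0.785, 0.237, 0.521 and 1.11 CPM to 23.4, 28.4, 31.6, 3.04 and 5.39 CPM (4.43, SE 0.68), *Itgax*, the integrin CD11c, from 2.39, 2.22, 2.85, 1.77 and 1.72 CPM to 11, 18.4, 15.6, 6.56 and 5.39 CPM, and the macrophage elastase *Mmp12* from 4.66, 1.44, 0.356, 1.15 and 1.52 CPM to 20.9, 42.3, 23.7, 5.35 and 11.4 CPM. Knockout mice 4 and 5 were lowest in all 3. The receptor of recruited monocytes, *Ccr2*, had 1.98 and the tetraspanin *Cd9* 1.26. Among 14 markers of resident Kupffer cells, only the scavenger receptor *Marco* was called higher, at 14.8, 9.95, 24.6, 17.2 and 7.19 CPM against 30.5, 212, 44.2, 26.4 and 20.1 CPM, with mouse 2 far above the rest (log2 fold change 2.18, adjusted p = 0.028, edgeR; 1.03 without knockout mouse 2, and not called without control mouse 1, 2, 4 or 5), and their sum was 1092 to 1888 CPM in controls and 1713 to 3186 CPM in knockouts. Of these 14 markers, 13 had a positive value, with a median of 0.58. An adjusted p under 0.05 in edgeR's test was reached by 6 positive and 0 negative members. Over all 11990 genes tested, 6163 were positive, and 1231 were positive at that adjusted p. *Clec4f*, which in the liver marks Kupffer cells, had 0.40 (adjusted p = 0.085, edgeR).

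Interferon-stimulated genes were positive in all 33 cases, 19 of them called higher and 0 lower, with a median of 1.05. *Zbp1*, a sensor of nucleic acids, went from 7.41, 5.5, 8.19, 5.52 and 4.56 CPM to 19.4, 44.2, 25.4, 17.9 and 15.6 CPM (1.98, SE 0.28), *Oas1a*, an antiviral oligoadenylate synthetase, from 11.8, 9.16, 7.48, 6.25 and 5.37 CPM to 21.3, 59.3, 35.4, 27 and 16.9 CPM, *Gbp6* had 1.60 and *Igtp* 1.03. In *Zbp1* and *Oas1a* mouse 2 was highest. Without knockout mouse 2 the called members of this list numbered 14. Ly6 surface antigens, which interferons are known to induce, were higher as well: *Ly6a* went from 15.8, 17.5, 11, 6.57 and 14.6 CPM to 33.6, 163, 122, 272 and 147 CPM, *Ly6c1* from 1.31, 1.18, 0.594, 1.04 and 1.62 CPM to 4.64, 16.7, 16.3, 56 and 27.6 CPM and *Ly6e* from 333, 297, 300.0, 204 and 222 CPM to 749, 1236, 1053, 837 and 675 CPM. *Ly6a* and *Ly6c1* were highest in mouse 4 and lowest in mouse 1. Their relation to the interferon-stimulated genes was not tested. Chemokines and cytokines had 6 of 19 genes higher and 0 lower, among them *Ccl9*, a monocyte attractant, from 28.8, 27.9, 25.3, 15.8 and 30.4 CPM to 94.3, 96.8, 98.6, 69.4 and 75.3 CPM (1.76, SE 0.17), and *Ccl6* (1.13), *Ccl5* (1.37) and *Cx3cl1* (1.5) rose as well. Mouse 2 had the highest score of the knockouts for interferon-stimulated genes (0.74, 1.82, 1.06, 0.80 and 0.86 in mice 1 to 5), chemokines and cytokines (0.67, 1.14, 0.66, 0.16 and 0.53) and recruited macrophage markers, while mouse 1 was lowest for the first and not for the other lists. The part of macrophage RNA in the interferon and chemokine values was not tested. Of 24 S100, annexin and cytoskeletal genes, 5 were higher, among them the galectins *Lgals3* (1.49) and *Lgals1* (1.12), and 1 lower; the 5 became 2 without knockout mouse 2 or control mouse 4, 3 without knockout mouse 1 or 3 or control mouse 3, and 8 without knockout mouse 5.

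Several lists had no called gene in edgeR's test. These were oxidative phosphorylation (30 genes tested, 2 with an unadjusted p under 0.05 and 0 called by DESeq2), endothelial markers (20, 3 and 0), stellate cell markers (14, 2 and 0), the circadian clock (17, 4 and 0), Hippo-YAP targets (17, 7 and 0), the integrated stress response (25, 7 and 1), T, B and NK cell markers (5, 2 and 0) and neutrophil markers (3, 1 and 0). Over all 11990 genes tested, 3724 had an unadjusted p under 0.05 in edgeR's test, and DESeq2 called 510 higher and 256 lower. Of 16 lymphocyte and 9 neutrophil markers the others had too few counts to be tested. Summed levels of endothelial markers were 507 to 624 CPM in controls and 426 to 675 CPM in knockouts, and those of stellate markers 237 to 290.1 CPM and 255 to 353 CPM. Of immediate early genes, *Ier3* was higher (1.5) and *Dusp1* lower (-1.33) of 16.

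**Figure D2:**
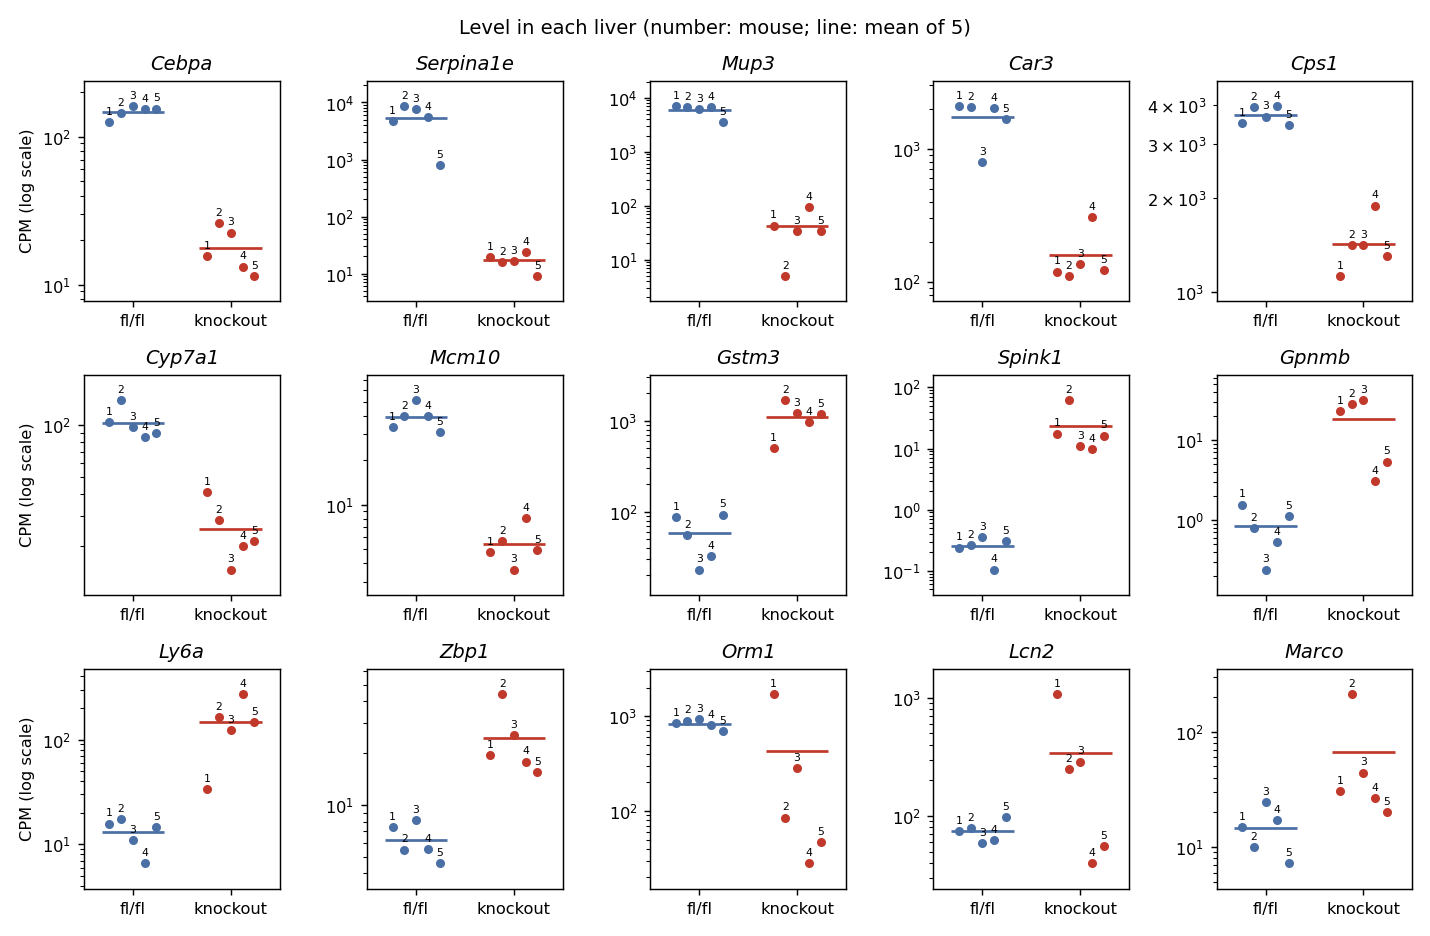
Level of 15 genes in each liver as CPM on a log scale, with Cebpa fl/fl mice in blue and Cebpa ΔHep,ERT2 mice in red, numbered 1 to 5; lines mark the mean of 5. *Serpina1e* and *Mup3* were separated by more than the spread of either genotype, while *Orm1* (SD of log2 CPM 2.36) and *Lcn2* (1.93) varied most of the 15 among the knockouts.

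The knockout mice differed among themselves. The first principal component of all genes tested held 49.6% of the variance and separated the genotypes, with Cebpa fl/fl mice at -41.4 to -25.2 and Cebpa ΔHep,ERT2 mice at 14.6 to 53.4, where mouse 2 lay farthest out and mouse 4 nearest to the controls. To read this on genes chosen from other mice, of which 45 were also called higher and 42 lower here, the response of each mouse was taken as the median difference from the Cebpa fl/fl mean over the 72 genes higher in both other experiments, which was 1.28, 1.82, 1.48, 1.11 and 1.27 in knockout mice 1 to 5, and over the 52 genes lower in both, -1.43, -1.99, -1.49, -1.54 and -1.91. Mouse 2 was the strongest by both measures, and mouse 4 the weakest by the first and mouse 1 by the second. Mouse 2 had the most *Cebpa* left and mouse 5 the least. Each of the 5 mice is 1 library, and no relation was tested across them.

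Over all genes, the SD of log2 CPM was larger among knockouts than among controls in 62.1% of genes, with medians of 0.26 and 0.22. The root mean square distance of a mouse from the mean of the others of its genotype was 0.398, 0.468, 0.344, 0.484 and 0.427 in knockouts and 0.336, 0.398, 0.381, 0.396 and 0.399 in controls, a difference of 0.0418 that did not pass the test (p = 0.183, two-sided exact permutation test). With a mouse left out the difference ran from 0.0140 without control mouse 1 to 0.0821 without knockout mouse 3. Without knockout mouse 3 it passed the same permutation test (p = 0.00794). That mouse had the smallest distance of the knockouts, so that its removal raises their mean by construction. With any other mouse left out the permutation test was not passed (p = 0.0635 to 0.667). Over genes with a mean of at least 10 CPM in all 10 mice, the permutation test gave p = 0.0794. Among the 490 higher genes, mouse 2 was the highest knockout in 324 and mouse 4 the lowest in 242. Among the 241 lower genes, mouse 2 was the lowest in 94 and mouse 4 the highest in 109. These genes were called with the same mice, so the counts give no independent ranking of them. Without mouse 2, 308 genes were called higher and 230 lower, and without mouse 4, 706 and 285.

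**Figure D3:**
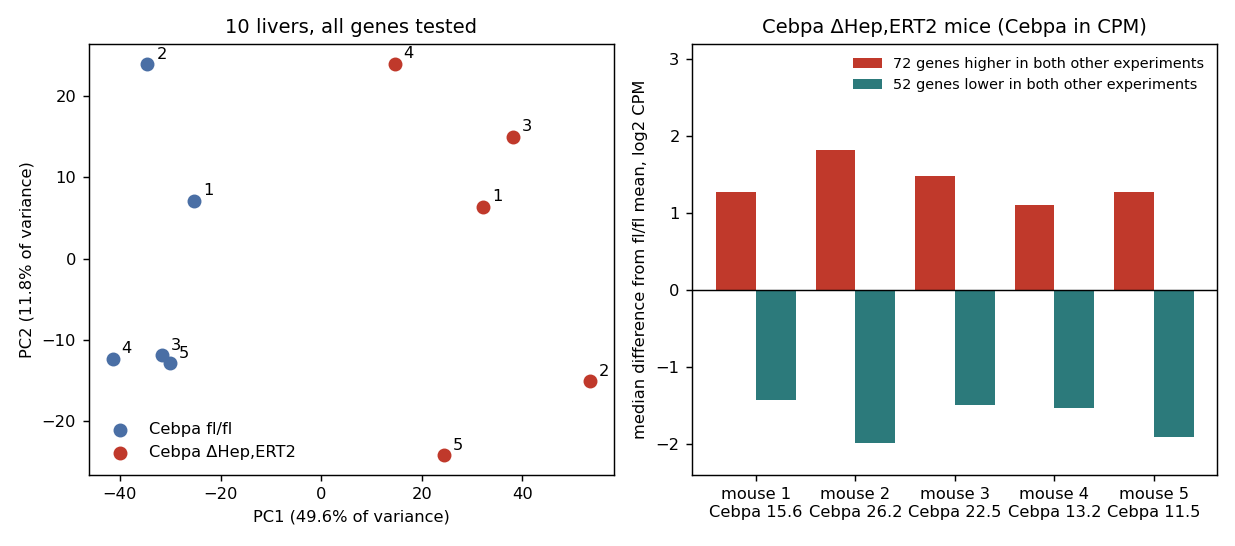
Left, first and second principal components of log2 CPM over 11990 genes in the 10 livers, blue for Cebpa fl/fl and red for Cebpa ΔHep,ERT2; right, median log2 CPM difference of each knockout mouse from the Cebpa fl/fl mean over 72 genes higher and 52 genes lower in both other experiments, with its *Cebpa* level. Mouse 2 had the largest differences, 1.82 and -1.99, and the highest *Cebpa* of the knockouts, 26.2 CPM.

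Each mouse also had genes of its own. Over the 7196 genes with a knockout mean of at least 10 CPM, mouse 1 was more than 2-fold above the next knockout in 15 genes and below it in 13, mouse 2 in 19 and 25, mouse 3 in 1 and 0, mouse 4 in 20 and 9, and mouse 5 in 8 and 4. Mouse 1 was set apart by acute phase proteins. *Orm1*, orosomucoid, was at 839.6, 897, 933, 804 and 692 CPM in controls and 1709, 85, 282, 27.9 and 47 CPM in knockouts, *Orm2* at 101, 131, 83.5, 92.3 and 125 CPM and 1681, 144, 358, 69 and 86.4 CPM, *Saa1* at 365, 376, 291, 779 and 332 CPM and 3803, 207, 627, 182 and 308 CPM, and *Saa2* at 201, 205, 168, 559 and 184 CPM and 3156, 144, 411, 118 and 172 CPM. In *Orm1* mouse 1 lay above every control and the other 4 knockouts below every control, and across genotypes these 4 genes passed no test (adjusted p = 0.5, 0.064, 0.27 and 0.21, edgeR). The acute phase and iron list score was 0.76, -0.44, 0.21, -0.46 and -0.56 in the knockouts. Mouse 1 was also lowest in *Gsta1* and *Gsta2* and in *Ly6a* and *Ly6c1*, and it had the highest score of the knockouts for cholesterol synthesis, 1.13, -0.04, 0.52, 0.43 and 0.52 in mice 1 to 5, and for lipogenesis, 0.70, -0.14, 0.46, 0.41 and 0.22.

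Mouse 2 was apart in *Marco*, *Spink1* and interferon-stimulated genes, with *Isg15* at 9.56, 5.76, 6.65, 6.57 and 8.3 CPM in controls and 19.4, 62.5, 21.7, 21 and 16 CPM in knockouts. It was also lowest in *Mup3*, *Sult2a8* and drug-metabolizing enzymes, whose list score was -0.88, -1.30, -0.56, 0.10 and -0.66 in knockout mice 1 to 5 and -0.11 to 0.19 in controls. Mouse 4, which had the lowest score for recruited macrophage markers among knockouts (1.80, 2.26, 1.92, 0.71 and 1.08 in mice 1 to 5), kept the most of several hepatocyte genes. Its score was 0.10 for drug-metabolizing enzymes, and its *Cyp2b10*, a target of CAR, was at 330.0 CPM where the other knockouts had 14.8 to 87.2 CPM and controls 264 to 851 CPM. The hepatocyte-defining markers scored -0.64, -0.95, -0.45, -0.05 and -0.79 in knockout mice 1 to 5. In 7 of 39 lists every knockout scored above every control, in 3 every knockout scored below (male-biased genes, nuclear receptors and the circadian clock), and in 29 the genotypes overlapped. Where the spread in liver RNA came from, whether from the mice, the tissue piece or the library, was not tested.

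**Figure D4:**
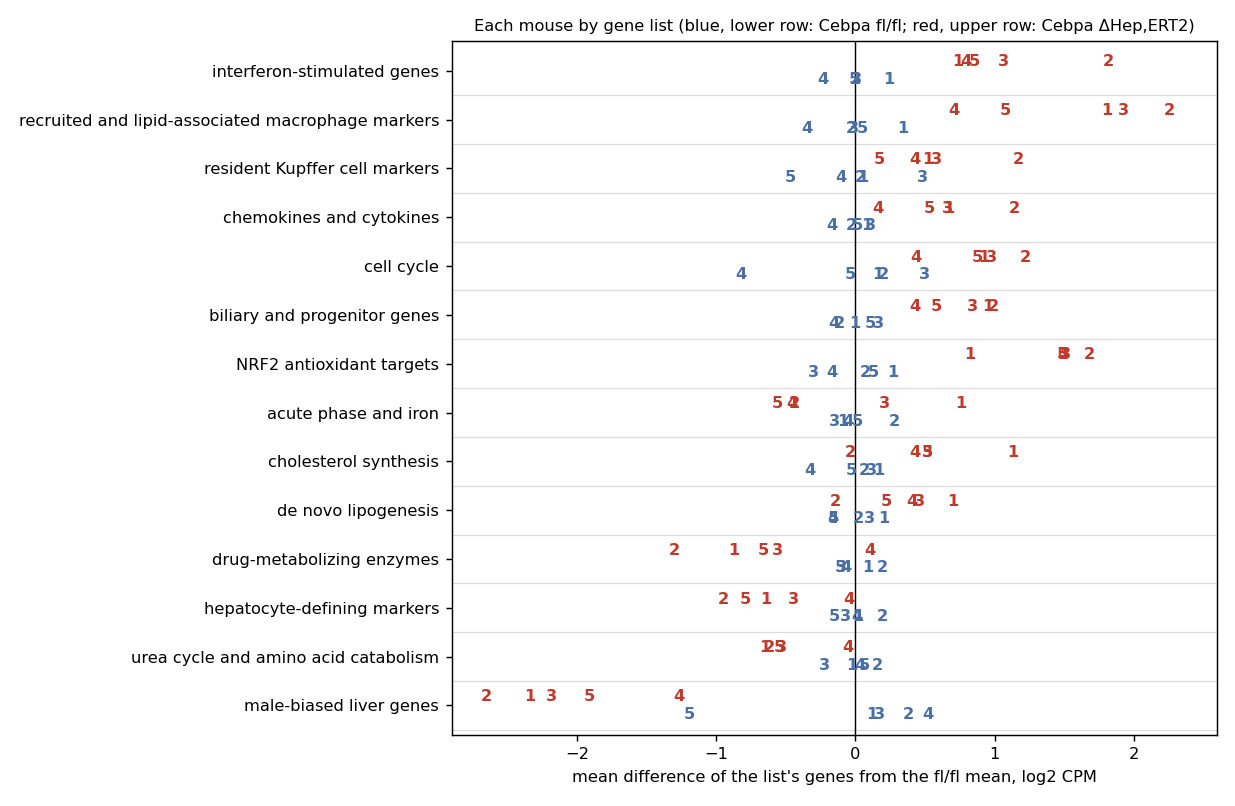
Mean log2 CPM difference from the Cebpa fl/fl mean over the members of 14 gene lists in each mouse (numbers 1 to 5; blue Cebpa fl/fl, red Cebpa ΔHep,ERT2). Mouse 2 was farthest out for interferon-stimulated genes (1.82) and drug-metabolizing enzymes (-1.30), mouse 1 for the acute phase and iron list (0.76), and mouse 4 lay within the controls for several hepatocyte lists.

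To ask what was particular to early loss, the genotype effects of the 3 experiments were set against each other by interaction terms, fitted jointly in edgeR over the 30 libraries. Of 12964 genes tested, 579 (4.47%) had an effect after 10 days that differed by more than 1 in log2 from that after 10 weeks, 78 more positive and 501 more negative, and 532 (4.1%) differed from the constitutive knockout, 236 more positive and 296 more negative. Diet time and tamoxifen time differ together in the first comparison, and Cre line, diet time and tamoxifen in the second. Against 10 weeks, *Marco* had the largest difference of the named genes on the more positive side, a log2 fold change of 2.17 after 10 days and -2.39 after 10 weeks (difference 4.55, SE 0.78, adjusted p = 0.00067, edgeR interaction test). *Cd163*, a haptoglobin-hemoglobin receptor, had -0.34 and -3.62, and *Timd4*, a phosphatidylserine receptor of resident Kupffer cells, 0.13 and -2.76. These 3 genes were thus lower after 10 weeks and not called lower after 10 days. On the other side, *Slc34a2* had -3.12 and 0.93, *Slpi*, a secreted protease inhibitor, -1.39 and 1.91, and *Serpina1e* -8.34 and -3.23.

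Against the constitutive knockout, *Serpina1e* and several Mup genes were at the far end of the more negative side. *Serpina1e* had -8.34 after 10 days and -0.33 in Cebpa ΔHep mice (difference -8.01, SE 1.26, adjusted p = 0.00012, edgeR interaction test), and *Mup11* -8.28 and -0.58. Over 19 male-biased genes in the joint fit, the median was -1.79 after 10 days, -1.82 after 10 weeks and -0.12 in the constitutive knockout. More positive after 10 days than in Cebpa ΔHep mice were *Cbr3*, with 3.72 against 0.26 (adjusted p = 0.0066, edgeR interaction test), and *Ly6d*, with 3.14 against 0.05. *Cyp2a4* fell in both but less here, -2.48 against -6.97, and *Sulf2*, an extracellular sulfatase, had -0.74 against -4.04 and the prolactin receptor *Prlr* -0.49 against -3.42. Medians of other lists over the same members in the joint fit, given without a test, ran from 10 days to 10 weeks as 1.31 and 3.22 for 26 biliary and progenitor genes, 1.11 and 2.20 for 36 cell cycle genes, 1.03 and 0.99 for 33 interferon-stimulated genes, 1.06 and 0.82 for 23 NRF2 targets and -0.08 and -0.47 for 30 oxidative phosphorylation genes.

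**Figure D5:**
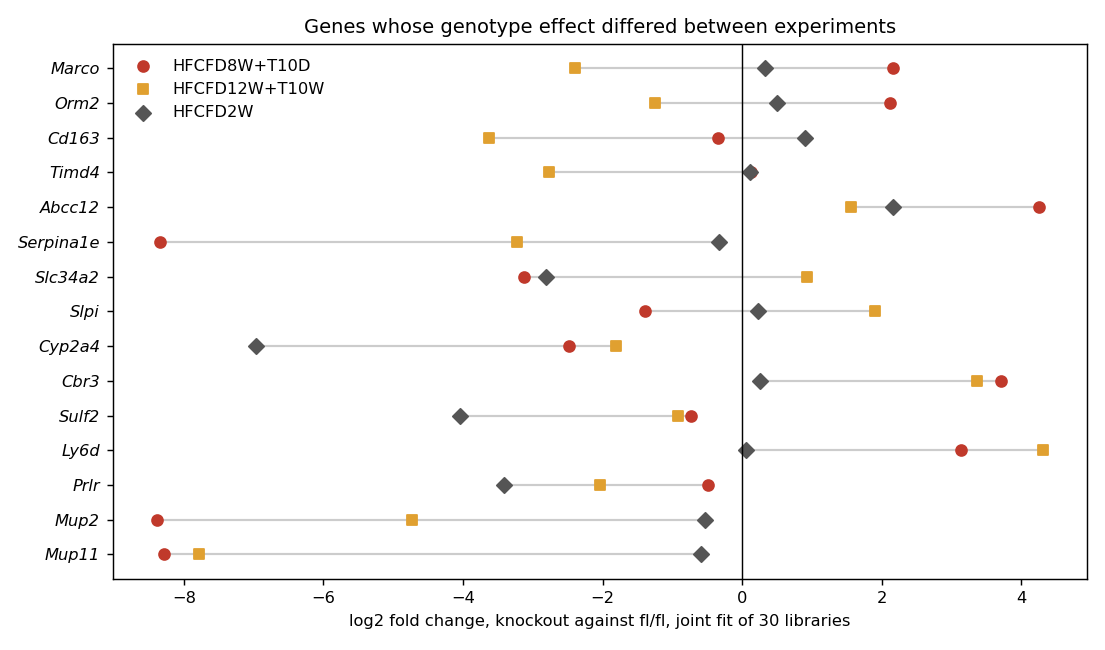
Log2 fold change of knockout against Cebpa fl/fl in the joint fit of 30 libraries for genes whose effect differed between experiments, after 10 days of tamoxifen (circles), after 10 weeks (squares) and in the constitutive knockout (diamonds). *Serpina1e* was at -8.34, -3.23 and -0.33 in that order, and *Marco* was positive after 10 days and negative after 10 weeks.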

How the data were processed

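Liver polyA RNA of 30 mice was sequenced from stranded libraries. Per the labels and the submitters' processing notes, the authors trimmed reads with Trimmomatic 0.36, aligned them with STAR 2.5.1 to mm10, used Picard 1.84 and deposited expected counts per gene from RSEM 1.2.22, which divide reads that fit several genes between them. Of the expected counts above 0 in the 10 libraries of HFCFD8W+T10D, 11.5% were not whole, and all were rounded. The role of Picard is not given in the sources used here. Groups came from the labels, which name biological replicates.

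Genes were filtered by genotype with filterByExpr, scaled by TMM and tested with edgeR 4.0.16 (quasi-likelihood F test, Benjamini-Hochberg adjustment over all genes tested) in R 4.3.3, after a check on simulated data with 200 changed genes. CPM used TMM-adjusted totals, log2 CPM a prior count of 2, and SE was the log2 fold change divided by the root of F. The floor was 3 counts. Interactions came from a fit of all 30 libraries. Single values per mouse were tested by exact permutation over 252 arrangements. Alternatives were DESeq2 1.42.0, upper quartile scaling, no filter on low counts, the joint fit, a replicate block, no fold minimum and leaving out each mouse.

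Named genes were the 15 with the largest fold in each direction among called genes without overlap and a mean of at least 10 CPM in the higher genotype, Mup genes left out; the 10 with the largest CPM difference in each direction; up to 4 called genes per list; the 10 most variable among knockouts; and 5 per direction of each interaction. A few of these were left out of the text. *Alb*, *Cebpb*, *Cyp2b10*, *Cyp2b13*, *Gsta1*, *Gsta2*, *Hnf4a*, *Isg15*, *Krt19*, *Clec4f*, *Hba-a1*, *Mup20*, *Mup-ps19*, *Serpina1b*, *Zbtb16*, *Pdk4* and *Lpin1* were chosen after their values were seen. Gene lists and members were chosen with earlier results of these data known.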

Additional observations from a re-analysis of the deposited data

Results flagged for a closer look

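In groups of 5 mice, a gap at one end that exceeded Dixon's critical value for that size was found in 37 of 394 groups examined (9.39%), where chance flags about 1 in 20. The groups covered library quantities, list scores and the genes named in the text, which are not independent of each other. Some of these genes were named for their spread among knockouts or after their values were seen. The share of flagged groups can therefore not be read against 1 in 20. Knockout mouse 1 was far below the others of its genotype in *Gsta1* (7.82 CPM). Knockout mouse 1 was far above the others of its genotype in *Lcn2* (1077 CPM), *Orm1* (1709 CPM), *Orm2* (1681 CPM), *Saa1* (3803 CPM) and *Saa2* (3156 CPM). Knockout mouse 2 was far above the others of its genotype in *Clec4f* (374 CPM), *Il1rn* (19.8 CPM), *Isg15* (62.5 CPM), *Lpl* (261 CPM), *Marco* (212 CPM), *Spink1* (61.7 CPM) and *Tff3* (106 CPM). Knockout mouse 3 was far above the others of its genotype in *Cux2* (9.27 CPM). Knockout mouse 4 was far above the others of its genotype in *Car3* (307 CPM), *Cyp2a4* (234 CPM), *Cyp2b10* (330.0 CPM) and *Elovl3* (5.71 CPM). Knockout mouse 5 was far above the others of its genotype in *Onecut2* (62.3 CPM). Control mouse 1 was far above the others of its genotype in *Mmp12* (4.66 CPM) and *Phlda3* (3.23 CPM). Control mouse 2 was far above the others of its genotype in *Cyp2a4* (922 CPM) and *Saa4* (599.8 CPM). Control mouse 3 was far above the others of its genotype in *Ehf* (0.475 CPM). Control mouse 4 was far below the others of its genotype in *Ccna2* (1.35 CPM) and *Plk1* (0.104 CPM). Control mouse 4 was far above the others of its genotype in *Saa1* (779 CPM) and *Saa2* (559 CPM). Control mouse 5 was far above the others of its genotype in *Acot1* (160.2 CPM), *Cyp4a10* (1851 CPM), *Cyp4a14* (1853 CPM) and *Il1rn* (10.8 CPM). Control mouse 5 was far below the others of its genotype in *Mup3* (3549 CPM). Among list scores, knockout mouse 1 was far below the other knockouts for NRF2 targets (0.82), knockout mouse 5 for glycolysis (0.10) and control mouse 5 far below the other controls for male-biased genes (-1.19), while knockout mouse 4 was far above the other knockouts for the urea cycle and amino acid catabolism (-0.0563).

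Genotype effects differed from those after 10 weeks of tamoxifen in 579 genes and from those in the constitutive knockout in 532, by the interaction test in edgeR. Relative to 10 weeks, the log2 effect after 10 days was higher by 4.55 for *Marco*, 3.37 for *Orm2*, 3.28 for *Cd163*, 2.90 for *Timd4* and 2.70 for *Abcc12*, and the difference was -5.11 for *Serpina1e*, -4.04 for *Slc34a2* and -3.29 for *Slpi*. Relative to the constitutive knockout it was 4.49 for *Cyp2a4*, 3.46 for *Cbr3*, 3.30 for *Sulf2*, 3.09 for *Ly6d*, 2.93 for *Prlr*, -8.01 for *Serpina1e*, -7.85 for *Mup2* and -7.70 for *Mup11*.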

How the results depend on the processing

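With a mouse left out, 308 (without knockout mouse 2) to 706 (without knockout mouse 4) genes were called higher and 226 to 285 lower. Without a fold minimum 1231 were higher and 821 lower, and without a minimum on the difference the interactions numbered 1356 against 10 weeks and 1457 against the constitutive knockout. The higher and lower counts were 650 and 331 without the filter on low counts, 510 and 256 by DESeq2, 550 and 226 with upper quartile scaling, and 725 and 288 in the joint fit. With a replicate block 444 were higher, and the lower count moved by less than 1.5 times. Same-numbered mice did not deviate together (correlations -0.08 to 0.16, 1 of 5 highest with its own number), so the numbers were not read as pairs. The difference in distance between genotypes ran from 0.0140 to 0.0821 with a mouse left out, and it passed the permutation test only without knockout mouse 3. Without the filter, list medians moved to -0.59 for female-biased genes, 1.30 for biliary genes (1.31 in the joint fit) and 0.90 for T, B and NK cell markers, and with a mouse left out they ran from 0.38 to 0.99 for oncofetal genes and from -0.36 to 0.95 for neutrophil markers. Leaving out mice turned the sign of 4 uncalled genes: *Saa1* ran from -0.38 to 1.58, *Saa2* from -0.33 to 2.07, *Cebpb* from -0.041 to 0.20 and *Timd4* from -0.066 (-0.060 without knockout mouse 2) to 0.45. Among the 15 alternatives, significance was lost in 11 for *Alb*, in 9 each for *Cyp3a41a*, *Lcn2* and *Onecut1*, in 8 each for *Cyp2f2* and *Mogat1*, in 7 for *Hk2*, in 6 for *Il1rn* and in 5 for *Marco*. It was lost in 3 for *Serpina7*, in 2 for *Cyp2b10* and in 1 each for *Cdkn1c*, *Cyp2b13* and *Cyp4a10*. The cause was not tested. At these depths of 8579909 to 9956884 counts, a gene at 3 counts lay near 0.327 CPM, which limits fold changes of genes such as *Spink1* and *Sqle*.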

Other observations

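Knockout mice 3 and 5 were also set apart by genes whose levels are not given above. Of these, *Lpin1* was a member of the lipogenesis list and *Pdk4* of the fatty acid oxidation and ketogenesis list. The alpha-globin *Hba-a1*, a gene of red blood cells and their precursors, was at 56.3, 65.7, 43.5, 51.5 and 66.9 CPM in Cebpa fl/fl mice 1 to 5 and 148, 149, 323, 93.1 and 55.8 CPM in Cebpa ΔHep,ERT2 mice 1 to 5, with mouse 3 highest and mouse 5 among the controls (log2 fold change 1.44, adjusted p = 0.016, edgeR's quasi-likelihood test). Mouse 5 was the lowest of all 10 in both of the next genes, which fasting or glucocorticoids are known to induce. *Zbtb16*, a zinc finger repressor, was at 3.04 CPM there, against 7.48 to 27.9 CPM, and *Lpin1*, a phosphatidate phosphatase, at 57.5 CPM against 112 to 703 CPM. *Pdk4*, a pyruvate dehydrogenase kinase, was at 9.9 CPM, the lowest knockout and within the controls. The time of day and feeding state at collection were not compared here.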
